A study of Mus musculus with 12 samples.

Results

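The genes described are those that make, store and read transforming growth factor β (TGFβ) signals: the ligands Tgfb1, Tgfb2 and Tgfb3, the latent TGFβ binding protein Ltbp3, the receptors Tgfbr1, Tgfbr2 and Tgfbr3, and the signal transducers Smad2, Smad3 and Smad4. They were taken by gene symbol and are 10 of the 78317 genes in the deposited table. Of these 10 genes, 9 were among the 14012 genes abundant enough to test, and Tgfbr3 was not. The cells were 4T1, a mouse mammary tumour line labelled as triple negative breast cancer. Messenger RNA was counted at its 3′ end in PBRM1 KO cells given 5 ng/ml TGFβ1 for 4 days, untreated PBRM1 KO cells, control cells given the same TGFβ1 treatment, and untreated control cells. Each of the 4 groups had 3 biological replicates. PBRM1 is a subunit of the PBAF chromatin remodelling complex. Library names carry sgCt and sgPB, with the sg prefix of guide RNAs. The sources used here do not give the edited site in Pbrm1 or say whether a line was 1 clone or a pool. Untreated samples are titled 0h although the protocol describes wells with or without TGFβ1 for 4 days, so TGFβ1 and time in culture cannot be told apart from the titles.

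TGFβ is secreted in a latent form. Its own propeptide holds it, latent TGFβ binding proteins such as Ltbp3 tether that complex to the matrix, and integrins or proteases release it. Free ligand binds the type II receptor Tgfbr2, which phosphorylates the type I receptor Tgfbr1, while Tgfbr3 (betaglycan) presents ligand, TGFβ2 above all. Tgfbr1 phosphorylates Smad2 and Smad3, which enter the nucleus with the shared partner Smad4 and control target genes, among them the inhibitory Smad7. In epithelial tumour cells the pathway is known both for slowing division and for epithelial to mesenchymal transition.

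Library totals ran from 9265693 to 11250850 counts. The 7 epithelial markers, most of whose counts came from Krt8 and Krt18, summed to 1903 to 2007 CPM (a gene's count scaled to the library total) in PBRM1 KO cells with TGFβ1, 2200.4 to 2358 CPM in untreated PBRM1 KO cells, 1634 to 1892 CPM in control cells with TGFβ1 and 2321 to 2428 CPM in untreated control cells. The basal keratin Krt5 was nearly absent, with 3.33 counts in all 12 libraries, but Krt14 of the same list was present. Krt14 averaged 35.4 CPM with TGFβ1 and 7.41 CPM untreated in PBRM1 KO cells, and 55.2 and 20.6 CPM in control cells. Its treated libraries spread widely, from 9.38 to 51.1 CPM and from 10.5 to 90.7 CPM. Means of Krt14 and Epcam were higher with TGFβ1 in both genotypes, and those of Cdh1, Krt8, Krt18 and Krt19 were lower. The 8 leukocyte markers summed to at most 10.4 CPM in any library, and their defining gene Ptprc had 6 counts in all libraries together. The 5 endothelial markers summed to at most 1.57 CPM. All 9 fibroblast markers were detected in every group, and their sums were 30.5 to 65.8 CPM in PBRM1 KO cells with TGFβ1, 29.2 to 39.8 CPM in untreated PBRM1 KO cells, 34.5 to 110.2 CPM in control cells with TGFβ1 and 36.2 to 50.7 CPM in untreated control cells. The part of these markers in the results was not tested. As these are bulk samples, fewer cells of a kind and less RNA per cell cannot be told apart.

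Both replicate 3 libraries with TGFβ1 stood apart. Known SMAD targets (Ccn2, Smad7, Skil and Pmepa1) lay on average 1.79, 1.67 and 0.84 log2 units above the untreated mean in replicates 1, 2 and 3 of PBRM1 KO cells, and 1.68, 1.53 and 0.76 log2 units above it in control cells. Another target, Tgfbi, had 67 counts in all and was not tested. All 6 treated libraries were above the untreated ones, which lay between -0.10 and 0.16, but replicate 3 was the lowest in both genotypes. The test with TGFβ1 of each of the 9 tested genes, and the count of calls in each gene list, is therefore given with and without these 2 libraries; they stand apart in the response itself, so the second value is no independent check.

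**Figure D1:**
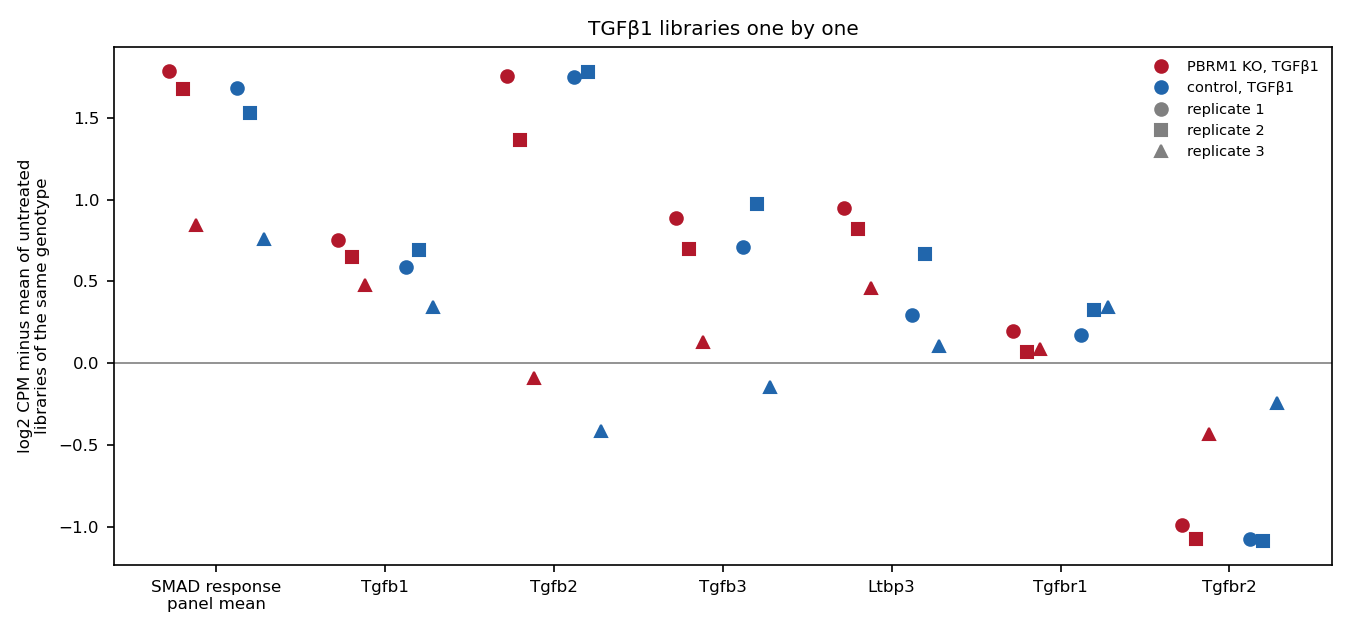
Each TGFβ1 library on its own: log2 CPM minus the mean of the untreated libraries of the same genotype (vertical axis, log2 units) for the mean of 4 SMAD targets and for 6 genes, with PBRM1 KO cells in red left of control cells in blue and the replicate given by the marker's shape. Replicate 3 (triangles) is the lowest for the SMAD targets (0.84 and 0.76) and near or below 0 for Tgfb2 (-0.09 and -0.41), and it is the least negative for Tgfbr2 (-0.43 and -0.24).

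The promoter windows of the 3 genes that passed a test are shown because their RNA moved with TGFβ1 and the SMAD proteins that carry its signal bind a short box, CAGAC. RefSeq windows were in the table for 6 of the 10 genes; Tgfb3, Tgfbr3, Smad2 and Smad4 had no entry. Each sequence is the 250 bases before the annotated start, 5′ to 3′ on the gene's strand, in build GRCm38.p6 (the counts were made on mm39), with any CAGAC in capitals. Tgfb1 lies at chr7:25686752-25687001 on the plus strand, Tgfbr2 at chr9:116175364-116175613 on the minus strand and Ltbp3 at chr19:5740650-5740899 on the plus strand.
Tgfb1: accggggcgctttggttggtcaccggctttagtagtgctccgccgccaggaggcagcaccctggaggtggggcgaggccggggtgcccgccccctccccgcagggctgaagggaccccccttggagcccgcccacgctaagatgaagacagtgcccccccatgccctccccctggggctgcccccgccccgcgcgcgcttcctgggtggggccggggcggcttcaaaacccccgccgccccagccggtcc
Tgfbr2: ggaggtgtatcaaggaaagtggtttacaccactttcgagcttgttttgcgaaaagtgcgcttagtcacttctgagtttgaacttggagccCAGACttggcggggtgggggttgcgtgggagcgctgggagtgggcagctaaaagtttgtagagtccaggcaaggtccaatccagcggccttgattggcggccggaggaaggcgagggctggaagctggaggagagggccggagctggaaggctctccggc
Ltbp3: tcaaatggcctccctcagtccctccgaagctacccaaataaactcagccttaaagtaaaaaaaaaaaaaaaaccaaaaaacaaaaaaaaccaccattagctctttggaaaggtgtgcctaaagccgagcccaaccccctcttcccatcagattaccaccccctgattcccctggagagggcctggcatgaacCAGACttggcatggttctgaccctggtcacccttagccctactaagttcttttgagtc
The Tgfb1 window held 0 matches to CAGAC on either strand. The Tgfbr2 window held 1, beginning 160 bases before the start, and the Ltbp3 window held 1, beginning 58 bases before it. Of the windows not shown, that of Tgfb2 held 2, Tgfbr1 had a window with 1 and another with 0, and that of Smad3 held 0. On either strand, 42.2% of all 32851 promoter windows of this length hold CAGAC. The longer SMAD palindrome GTCTAGAC (in 0.167% of windows), the AP-1 site TGANTCA (6.75%) and the SNAI and ZEB E-box CACCTG (17.2%) were not found in the windows of the 6 genes. A match describes letters and is no evidence of binding.

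Of the ligands, the cells' own Tgfb1 RNA rose with TGFβ1 in both genotypes. Tgfb1, which encodes the isoform that was added, had 31.5, 28.8 and 25.2 CPM in PBRM1 KO cells with TGFβ1, against 15.6, 19.9 and 19.2 CPM in untreated PBRM1 KO cells. Control cells had 27.6, 29.8 and 22.9 CPM with TGFβ1, against 17.8, 18.7 and 18.1 CPM untreated. The 6 treated libraries were all above the 6 untreated ones. Tgfb1 rose in PBRM1 KO cells by a log2 fold change of 0.63 ± 0.12 (SE, adjusted p = 0.00643, edgeR quasi-likelihood test) and in control cells by 0.55 ± 0.13 (adjusted p = 0.0170). These are 1.55-fold (95% interval 1.29 to 1.87) and 1.47-fold (1.22 to 1.77). Without the replicate 3 libraries the log2 fold changes were 0.70 ± 0.12 (adjusted p = 0.000379) and 0.65 ± 0.12 (adjusted p = 0.000945). Leaving out 1 library at a time kept the call in PBRM1 KO cells in 6 of 6 fits. In control cells it was kept in 1 of 6, the fit without TGFβ1 replicate 3, and without any other library the adjusted p ran up to 0.0976.

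Tgfb2 encodes a second isoform, one that depends on betaglycan for strong receptor binding. It had 69.6, 52.1 and 18.7 CPM in PBRM1 KO cells with TGFβ1, against 26.1, 19.7 and 15.5 CPM untreated. The control values were 51.4, 52.8 and 11.2 CPM with TGFβ1, against 22.5, 13.4 and 11.4 CPM untreated. Replicates 1 and 2 with TGFβ1 were above all untreated libraries, replicate 3 lay among them in PBRM1 KO cells and just below them in control cells, so the groups overlapped. Tgfb2 did not pass the test: the log2 fold change was 1.17 ± 0.51 in PBRM1 KO cells (adjusted p = 0.156, 95% interval 0.08 to 2.26) and 1.28 ± 0.52 in control cells (adjusted p = 0.147, 0.16 to 2.40). Without both replicate 3 libraries it passed in both, at 1.54 ± 0.22 (adjusted p = 7.77e-05) and 1.71 ± 0.22 (adjusted p = 5.51e-05). With the replicate number as a block it passed in PBRM1 KO cells, where libraries of the same number were treated as paired, at 1.06 ± 0.26 (adjusted p = 0.0123). Under the block Tgfb2 passed in control cells as well, which were not treated as paired. No label says what a number marks.

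Tgfb3, the third mammalian isoform, had 38.4, 33.1 and 21.9 CPM in PBRM1 KO cells with TGFβ1, against 21.9, 19.8 and 18.9 CPM untreated. Among control cells it had 27.7, 33.6 and 15.0 CPM with TGFβ1, against 24.4, 13.1 and 14.9 CPM untreated. The groups did not overlap in PBRM1 KO cells, where the closest treated and untreated libraries were nearly equal, and overlapped in control cells. Its log2 fold change was 0.61 ± 0.27 in PBRM1 KO cells (adjusted p = 0.173) and 0.54 ± 0.28 in control cells (adjusted p = 0.256), neither of which passed. Without both replicate 3 libraries it passed, at 0.80 ± 0.18 (adjusted p = 0.00456) and 0.80 ± 0.19 (adjusted p = 0.00625), and the block gave 0.58 ± 0.19 (adjusted p = 0.0482) in PBRM1 KO cells. Tgfb3 overlaps Ttll5 on the opposite strand, and Ttll5 itself rose (log2 fold change 1.55, adjusted p = 0.0186 in PBRM1 KO cells, and 1.33, adjusted p = 0.0437 in control cells). The libraries were stranded, but no source used here states the strand setting of the counting, so the share of either gene's reads in the other was not tested.

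The 3 ligand RNAs summed to 139.6, 114 and 65.8 CPM in PBRM1 KO cells with TGFβ1, against 63.6, 59.5 and 53.6 CPM untreated. In control cells the sums were 107, 116 and 49.1 CPM with TGFβ1, against 64.7, 45.1 and 44.4 CPM untreated. The treated groups of the 2 genotypes thus shared the low replicate 3.

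Ltbp3, which tethers latent TGFβ to the matrix, rose in PBRM1 KO cells. It had 214, 192 and 147 CPM in PBRM1 KO cells with TGFβ1, against 103, 110.3 and 111 CPM in untreated PBRM1 KO cells. Control cells had 135, 176 and 117 CPM with TGFβ1, against 120.1, 101 and 109 CPM untreated. The treated libraries were clear of the untreated ones in PBRM1 KO cells and overlapped them in control cells. The rise in PBRM1 KO cells was a log2 fold change of 0.76 ± 0.14 (adjusted p = 0.00522), which is 1.69-fold (95% interval 1.36 to 2.09), and this call was kept in 6 of 6 fits that left out a library. In control cells the log2 fold change was 0.37 ± 0.14 (adjusted p = 0.126), and without both replicate 3 libraries it was 0.49 ± 0.11 and passed (adjusted p = 0.00367), against 0.88 ± 0.11 (adjusted p = 1.90e-05) in PBRM1 KO cells. The difference between the genotypes in this response was 0.38 ± 0.20 (adjusted p = 1.00, 95% interval -0.05 to 0.82), so a different response of Ltbp3 was not shown.

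Among the receptors, the RNA of Tgfbr2, which binds ligand first, was lower with TGFβ1. Tgfbr2 had 53.7, 49.5 and 76.6 CPM in PBRM1 KO cells with TGFβ1, against 93.9, 100.1 and 119 CPM in untreated PBRM1 KO cells. Control cells had 52.2, 51.9 and 91.8 CPM with TGFβ1, against 112, 105 and 112 CPM untreated. Every treated library was below every untreated library of the same genotype, and replicate 3 was the closest to them in both. Tgfbr2 fell by 0.81 ± 0.21 on the log2 scale in PBRM1 KO cells (adjusted p = 0.0276) and fell by 0.75 ± 0.21 in control cells (adjusted p = 0.0450). The treated level was 0.571 of the untreated level in PBRM1 KO cells (95% interval 0.416 to 0.784) and 0.596 of it in control cells (0.434 to 0.819). Without both replicate 3 libraries the log2 fold changes were -1.04 ± 0.10 (adjusted p = 3.27e-06) and -1.09 ± 0.11 (adjusted p = 2.79e-06). The call was kept in 1 of 6 fits that left out a library in each genotype, the fit without TGFβ1 replicate 3. Without any other library the adjusted p ran up to 0.135 in PBRM1 KO cells and up to 0.200 in control cells.

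Tgfbr1, the kinase that phosphorylates the SMADs, had log2 fold changes above 0 in both genotypes and did not pass the test. It had 43.0, 38.7 and 38.7 CPM in PBRM1 KO cells with TGFβ1, against 35.6, 35.1 and 39.5 CPM untreated. In control cells it had 47.7, 53.3 and 53.0 CPM with TGFβ1, against 44.8, 41.6 and 40.0 CPM untreated. The control groups did not overlap, the treated libraries lying above. The log2 fold change was 0.12 ± 0.09 in PBRM1 KO cells (adjusted p = 0.419, 95% interval -0.07 to 0.30) and 0.28 ± 0.09 in control cells (adjusted p = 0.0559, 0.10 to 0.47). In control cells it passed where genes needed 10 CPM on average (adjusted p = 0.0438). Without both replicate 3 libraries the log2 fold changes were 0.13 ± 0.10 (adjusted p = 0.350) and 0.25 ± 0.09 (adjusted p = 0.0695).

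The count of Tgfbr2 over that of Tgfbr1 gives the balance of the 2 receptor RNAs within a library. It was 1.25, 1.28 and 1.98 in PBRM1 KO cells with TGFβ1, against 2.64, 2.85 and 3.02 untreated. For control cells it was 1.10, 0.975 and 1.73 with TGFβ1, against 2.50, 2.53 and 2.79 untreated. All 6 treated libraries were below all 6 untreated ones. The mean log2 difference was -0.95 in PBRM1 KO cells and -1.09 in control cells, each with a two-sided exact permutation p = 0.1, the smallest that 3 against 3 libraries can give. As Tgfbr2 alone already kept treated and untreated libraries apart in each genotype, this p adds no separate support. The treated replicates 1 and 2 alone lay between 0.975 and 1.28. The ratio follows changes between libraries and is no ratio of molecules, since capture at the 3′ end differs between genes.

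**Figure D2:**
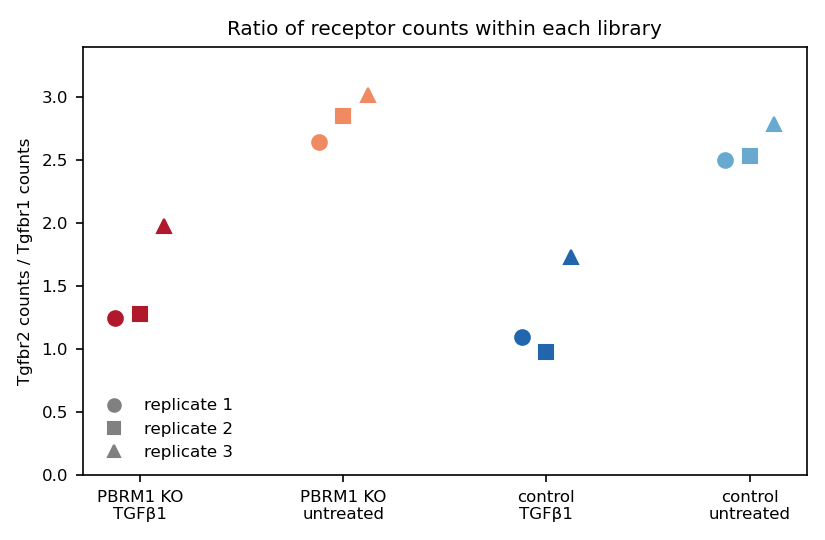
Count ratio of Tgfbr2 to Tgfbr1 in each library, with PBRM1 KO cells left of control cells and TGFβ1 left of untreated; each point is a library and its shape gives the replicate. The 6 treated libraries lie between 0.975 and 1.98, all below the untreated libraries at 2.50 to 3.02.

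Tgfbr3 encodes betaglycan. It was too low to test, with 72 counts in all 12 libraries: 3, 4 and 4.5 counts in PBRM1 KO cells with TGFβ1, 7, 4 and 6 in untreated PBRM1 KO cells, 5, 8.5 and 4 in control cells with TGFβ1, and 14, 7 and 5 in untreated control cells. The groups overlapped in both genotypes. A difference was not detectable at this depth: fitted without a filter, the log2 fold change with TGFβ1 was -0.58 ± 0.57 in PBRM1 KO cells (adjusted p = 0.710) and -0.58 ± 0.48 in control cells (adjusted p = 0.705).

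The SMADs that carry the signal did not pass the test with TGFβ1 in either genotype. Smad4, the shared partner, had 114, 115 and 113 CPM in PBRM1 KO cells with TGFβ1, against 95.1, 106 and 105 CPM untreated. In control cells Smad4 had 113, 124 and 113 CPM with TGFβ1, against 121, 96.7 and 97.2 CPM untreated. The libraries were separated in PBRM1 KO cells, with those given TGFβ1 above, but the log2 fold changes were small, 0.14 ± 0.09 (adjusted p = 0.316, 95% interval -0.05 to 0.33) in PBRM1 KO cells and 0.16 ± 0.09 (adjusted p = 0.303, -0.03 to 0.35) in control cells. Smad3, a receptor-activated SMAD that binds DNA directly, had 62.8, 49.6 and 52.5 CPM in PBRM1 KO cells with TGFβ1, against 47.5, 48.3 and 55.8 CPM untreated. It had 47.1, 53.5 and 61.7 CPM in control cells with TGFβ1, against 53.9, 45.0 and 47.7 CPM untreated. These groups overlapped, and the log2 fold changes of Smad3 were 0.11 ± 0.12 (adjusted p = 0.607) in PBRM1 KO cells and 0.15 ± 0.12 (adjusted p = 0.484) in control cells. Smad2, the other receptor-activated SMAD, had 12.4, 13.8 and 14.1 CPM in PBRM1 KO cells with TGFβ1 and 14.2, 13.4 and 13.9 CPM untreated. In control cells it had 12.2, 9.77 and 10.7 CPM with TGFβ1 and 10.4, 10.9 and 12.9 CPM untreated. Here too the groups overlapped, with log2 fold changes of -0.05 ± 0.13 (95% interval -0.33 to 0.22) in PBRM1 KO cells and -0.07 ± 0.13 (-0.35 to 0.22) in control cells. Of the bounds of these 6 intervals, the one farthest from 0 was 0.41 on the log2 scale, the upper bound for Smad3 in control cells. In PBRM1 KO cells without both replicate 3 libraries the log2 fold changes were 0.14 for Smad4, 0.13 for Smad3 and -0.10 for Smad2 (adjusted p = 0.331 to 0.645). In control cells they were 0.17, 0.03 and -0.07 (adjusted p = 0.243 to 0.867).

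**Figure D3:**
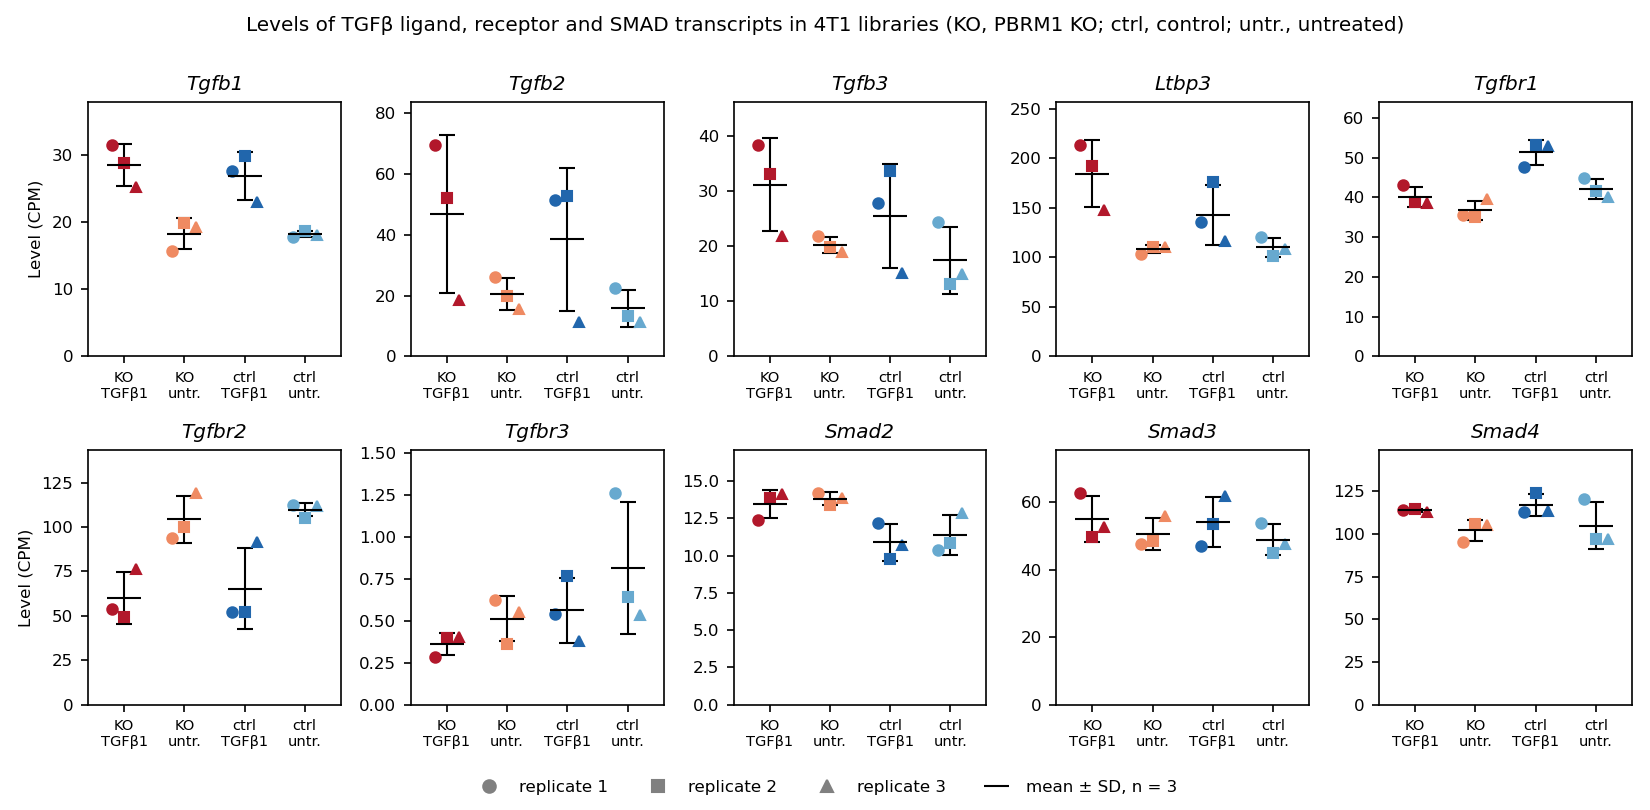
Level of each of the 10 genes in CPM by library, with PBRM1 KO cells left of control cells and TGFβ1 left of untreated; points are libraries, their shape gives the replicate, and bars are the group mean ± SD (n = 3). Tgfb1 lies higher and Tgfbr2 lower in treated than in untreated libraries of both genotypes, while treated and untreated libraries overlap for Smad2 and Smad3 and Tgfbr3 stays at or below 1.27 CPM.

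With TGFβ1, 3 of the 9 tested genes passed in PBRM1 KO cells (Tgfb1, Ltbp3 and Tgfbr2), where 11.4% of all 14012 genes passed. In control cells 2 of 9 passed (Tgfb1 and Tgfbr2), where 8.81% of all genes passed. Groups did not overlap for 5 of 9 genes in PBRM1 KO cells, against 29.9% of all genes, and for 3 of 9 in control cells, against 26.2%. The median log2 fold change of the 9 genes was 0.14 in PBRM1 KO cells and 0.28 in control cells, beside medians over all tested genes of -0.00 and 0.00. Without both replicate 3 libraries 5 of 9 genes passed in each genotype, the 3 ligands, Ltbp3 and Tgfbr2, while 27.9% of all tested genes passed in PBRM1 KO cells and 23.9% in control cells. With the replicate block, 5 of 9 passed in PBRM1 KO cells, where 19.8% of all genes passed. In control cells, which were not treated as paired, 4 of 9 passed under the block (Tgfb1, Tgfb2, Tgfbr1 and Tgfbr2). There 1507 of all 14012 genes were higher and 890 lower. The 2 genotypes were each set against their own untreated libraries.

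**Figure D4:**
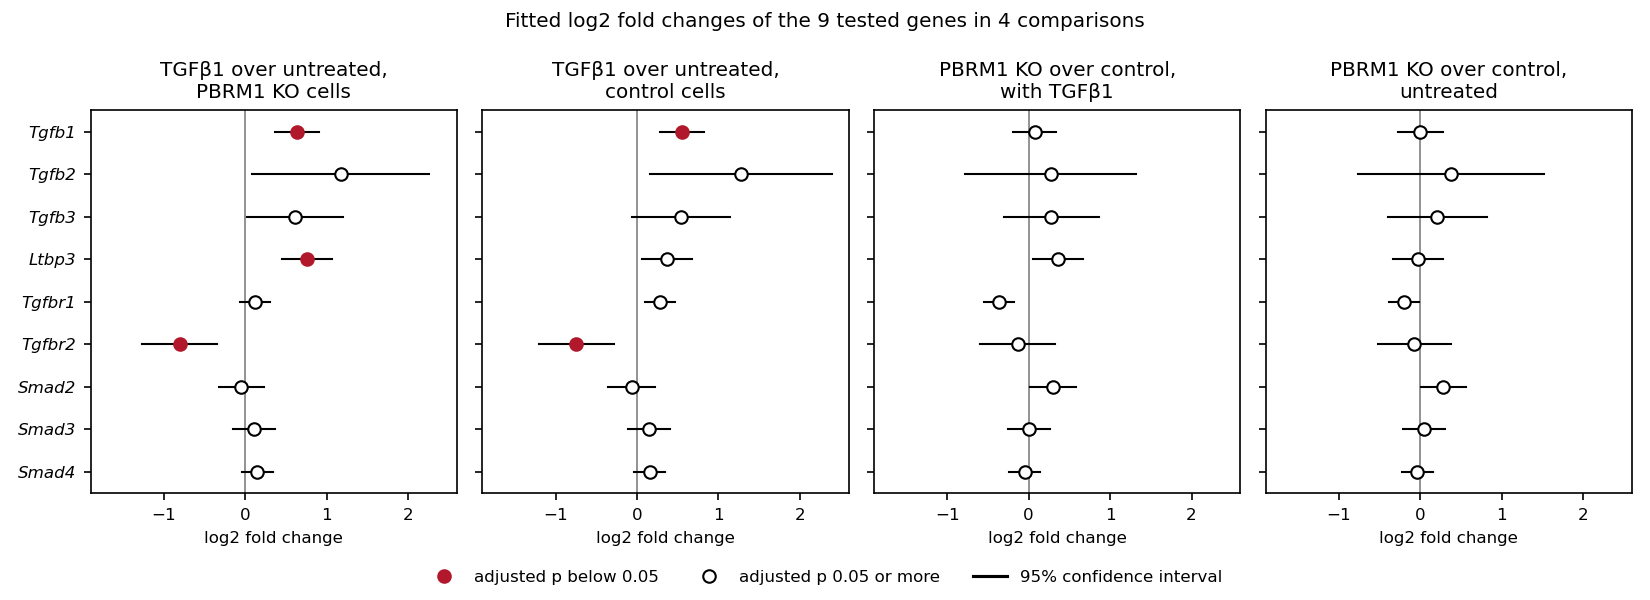
Log2 fold changes of the 9 tested genes with 95% intervals from edgeR, for TGFβ1 against untreated and for PBRM1 KO against control cells; filled points have an adjusted p below 0.05. Intervals of Tgfb1 and Tgfbr2 lie clear of 0 on opposite sides with TGFβ1 in both genotypes, and none of the genes passes between genotypes.

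PBRM1 KO cells were compared with control cells to ask whether loss of PBRM1 moved the RNA of the pathway's own components. With TGFβ1, 0 of 9 genes passed in edgeR, where 0.271% of all genes passed, and DESeq2 and limma-voom gave 0 calls. In edgeR 3 of the 9 had an unadjusted p below 0.05 (Tgfbr1, Smad2 and Ltbp3), against 1194 of all 14012 genes. Without TGFβ1, 0 of 9 passed in edgeR, where 0.278% of all genes passed, and both other tools gave 0 calls. Here 2 of the 9 had an unadjusted p below 0.05 in edgeR (Tgfbr1 and Smad2), against 1065 of all 14012 genes. The KO and control libraries did not overlap for 2 of 9 genes with TGFβ1, against 11.9% of all genes, and for 2 of 9 without it, against 15.7%. In both cases the genes were Tgfbr1, lower in PBRM1 KO cells, and Smad2, higher in them. These 2 comparisons share no library, but both set the same PBRM1 KO cells against the same control cells. Loss of PBRM1 and any other difference between these cells therefore cannot be told apart. Neither gene passed in either comparison.

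For Tgfbr1 the log2 fold change between genotypes was -0.37 ± 0.09 with TGFβ1 (adjusted p = 0.118, 95% interval -0.55 to -0.18) and -0.20 ± 0.09 without it (adjusted p = 0.607, -0.39 to -0.01). Its unadjusted p with TGFβ1, 0.000847, ranked 100 among all genes. With the replicate block, where libraries of the same number were treated as paired, its adjusted p was 0.0614. Smad2 differed by 0.30 ± 0.13 with TGFβ1 (adjusted p = 0.548, 0.02 to 0.58) and by 0.28 ± 0.13 without it (adjusted p = 0.650, 0.00 to 0.56). Ltbp3 differed by 0.36 ± 0.14 with TGFβ1 (adjusted p = 0.483, 0.05 to 0.66) and by -0.03 ± 0.14 without it. The other 6 genes gave smaller differences relative to their errors, as for Tgfb1 at 0.08 ± 0.12 and Tgfbr2 at -0.14 ± 0.21 with TGFβ1.

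The response to TGFβ1 was then compared between genotypes as an interaction, PBRM1 KO minus control. It passed for 0 of 9 genes and for 0% of all genes in edgeR, with 0 of the 9 at an unadjusted p below 0.05, against 247 of all genes; DESeq2 and limma-voom gave 0 calls as well. For Tgfb1 the difference was 0.08 ± 0.18 (95% interval -0.30 to 0.46), for Tgfbr2 it was -0.06 ± 0.30 (-0.71 to 0.58) and for Tgfb2 it was -0.11 ± 0.72 (-1.66 to 1.45). The interval of Tgfb2 is wide enough to hold a 2-fold difference in either direction.

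Other genes of the pathway were described from 7 lists, made by role. Among 13 genes that store or activate latent TGFβ, 8 were tested; 5 rose and 0 fell in PBRM1 KO cells, against 7.65% and 3.72% of all genes, and 4 rose and 0 fell in control cells, against 5.89% and 2.91%. The median log2 fold change of the 8, Fbn1 included, was 0.55 and 0.53, and that of the tested genes other than Fbn1 was 0.50 and 0.52. Furin, the protease that cuts the TGFβ precursor, rose by 1.59 ± 0.32 in PBRM1 KO cells (adjusted p = 0.00779) and by 1.44 ± 0.32 in control cells (adjusted p = 0.0167). Fbn1, the fibrillin on which latent binding proteins dock, is among those counted. It had 3 to 8 counts in any untreated library and 7 to 38 in any treated one, and it entered the tested set only through the treated libraries, so its call (log2 fold change 2.05 in both, adjusted p = 0.0302 and 0.0218) adds no support and leaves 4 and 3 other calls. Thbs1, thrombospondin 1, an activator of latent TGFβ, rose by 0.60 ± 0.17 (adjusted p = 0.0438) and 0.84 ± 0.18 (adjusted p = 0.0117). Ltbp2, a matrix protein of the same family as Ltbp3, rose in PBRM1 KO cells by 0.77 ± 0.20 (adjusted p = 0.0267), and its value in control cells was 0.43 ± 0.20 (adjusted p = 0.206). Leaving out both replicate 3 libraries, 7 of the 8 rose in each genotype, Fbn1 included, and 0 fell, against 27.9% of all genes called in PBRM1 KO cells and 23.9% in control cells.

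Among 14 other receptors and co-receptors of the family, 10 were tested, and 4 rose and 1 fell in each genotype, where 11.4% of all genes were called in PBRM1 KO cells and 8.81% in control cells. The counts were the same without both replicate 3 libraries, where 27.9% and 23.9% of all genes were called. Cd109, a co-receptor that promotes receptor degradation, rose by 1.62 ± 0.19 in PBRM1 KO cells (adjusted p = 0.000295) and by 1.28 ± 0.20 in control cells (adjusted p = 0.00176). Eng, the co-receptor endoglin, rose by 0.80 ± 0.17 (adjusted p = 0.00824) and 0.70 ± 0.17 (adjusted p = 0.0212). The bone morphogenetic protein (BMP) receptor Bmpr2 rose by 0.86 ± 0.21 (adjusted p = 0.0186) and 0.88 ± 0.21 (adjusted p = 0.0212), and the type I receptor Acvr1 by 0.85 ± 0.18 (adjusted p = 0.00997) and 0.71 ± 0.18 (adjusted p = 0.0296). Nrp1, neuropilin 1, which can bind TGFβ, moved the other way: it averaged 26.6 ± 3.34 CPM with TGFβ1 and 40.4 ± 4.29 CPM untreated in PBRM1 KO cells, and 18.8 ± 1.95 CPM with TGFβ1 and 35.2 ± 8.36 CPM untreated in control cells (SD, n = 3 each). Its log2 fold changes were -0.61 ± 0.15 (adjusted p = 0.0189) and -0.90 ± 0.15 (adjusted p = 0.00325).

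Of 5 other SMADs, 4 were tested, and 2 rose and 0 fell in each genotype, against 11.4% of all genes called in PBRM1 KO cells and 8.81% in control cells. Smad7, which inhibits the receptors, rose by 0.90 ± 0.22 in PBRM1 KO cells (adjusted p = 0.0204) and by 1.02 ± 0.22 in control cells (adjusted p = 0.0143). Smad1, of the BMP arm, rose by 0.53 ± 0.12 (adjusted p = 0.0155) and 0.50 ± 0.12 (adjusted p = 0.0237). With both replicate 3 libraries left out, all 4 tested genes of the list (Smad1, Smad5, Smad6 and Smad7) rose in both genotypes, where 27.9% and 23.9% of all genes were called. Smad7 is also 1 of the 4 SMAD targets by which these libraries stood apart. With the block, 3 rose in PBRM1 KO cells, where 19.8% were called. In control cells 4 rose under the block, where 1507 of all 14012 genes were higher and 890 lower.

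Of 27 SMAD partners and regulators, 26 were tested; 4 rose and 1 fell in PBRM1 KO cells, and 3 rose and 0 fell in control cells. Over all tested genes 7.65% were higher and 3.72% lower with TGFβ1 in PBRM1 KO cells, and 5.89% and 2.91% in control cells. The median log2 fold change was 0.04 and 0.12. Pmepa1, which sequesters receptor-activated SMADs, rose by 1.37 ± 0.24 in PBRM1 KO cells (adjusted p = 0.00307) and by 0.97 ± 0.24 in control cells (adjusted p = 0.0238). The corepressors Skil (1.05 ± 0.29, adjusted p = 0.0341, and 0.99 ± 0.29, adjusted p = 0.0489) and Tgif1 (0.40 ± 0.09, adjusted p = 0.0155, and 0.39 ± 0.09, adjusted p = 0.0227) rose as well. Smurf1, a ubiquitin ligase that acts on SMADs and receptors, rose in PBRM1 KO cells by 0.58 ± 0.15 (adjusted p = 0.0228), and the endocytic adaptor Dab2 fell there by 1.48 ± 0.31 on the log2 scale (adjusted p = 0.00833). Neither passed in control cells, where treated and untreated means were 74.5 and 54.9 CPM for Smurf1 and 15.8 and 27.0 CPM for Dab2. Without both replicate 3 libraries both passed in control cells, Smurf1 at 0.59 ± 0.09 (adjusted p = 0.000262) and Dab2 at -1.25 ± 0.17 (adjusted p = 0.000105). Pmepa1 and Skil are also 2 of the 4 SMAD targets used to describe the response. With both replicate 3 libraries left out, 5 rose and 3 fell in PBRM1 KO cells and 9 rose and 2 fell in control cells, where 27.9% and 23.9% of all genes were called.

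Of the rest, 4 of 18 other ligands of the family were tested, and 1 rose in PBRM1 KO cells and 0 in control cells, against 7.65% and 5.89% of all genes. It was Inhba, which encodes the activin A subunit, at 1.21 ± 0.28 (adjusted p = 0.0161); its value in control cells was 0.58 ± 0.28 (adjusted p = 0.225), and without both replicate 3 libraries it rose there by 0.85 ± 0.13 (adjusted p = 0.000210). Among 10 extracellular antagonists 3 were tested, and Fstl3, which binds activin, rose by 1.39 ± 0.23 (adjusted p = 0.00227) and 1.22 ± 0.23 (adjusted p = 0.00550). All 11 genes of the receptor-proximal arm that bypasses the SMADs were tested, and Traf4 alone passed, in PBRM1 KO cells at 0.35 ± 0.08 (adjusted p = 0.0172). Over all genes 11.4% were called in PBRM1 KO cells and 8.81% in control cells. Each of these 3 lists had 1 gene that rose and 0 that fell in each genotype once both replicate 3 libraries were left out, where 27.9% and 23.9% of all genes were called.

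**Figure D5:**
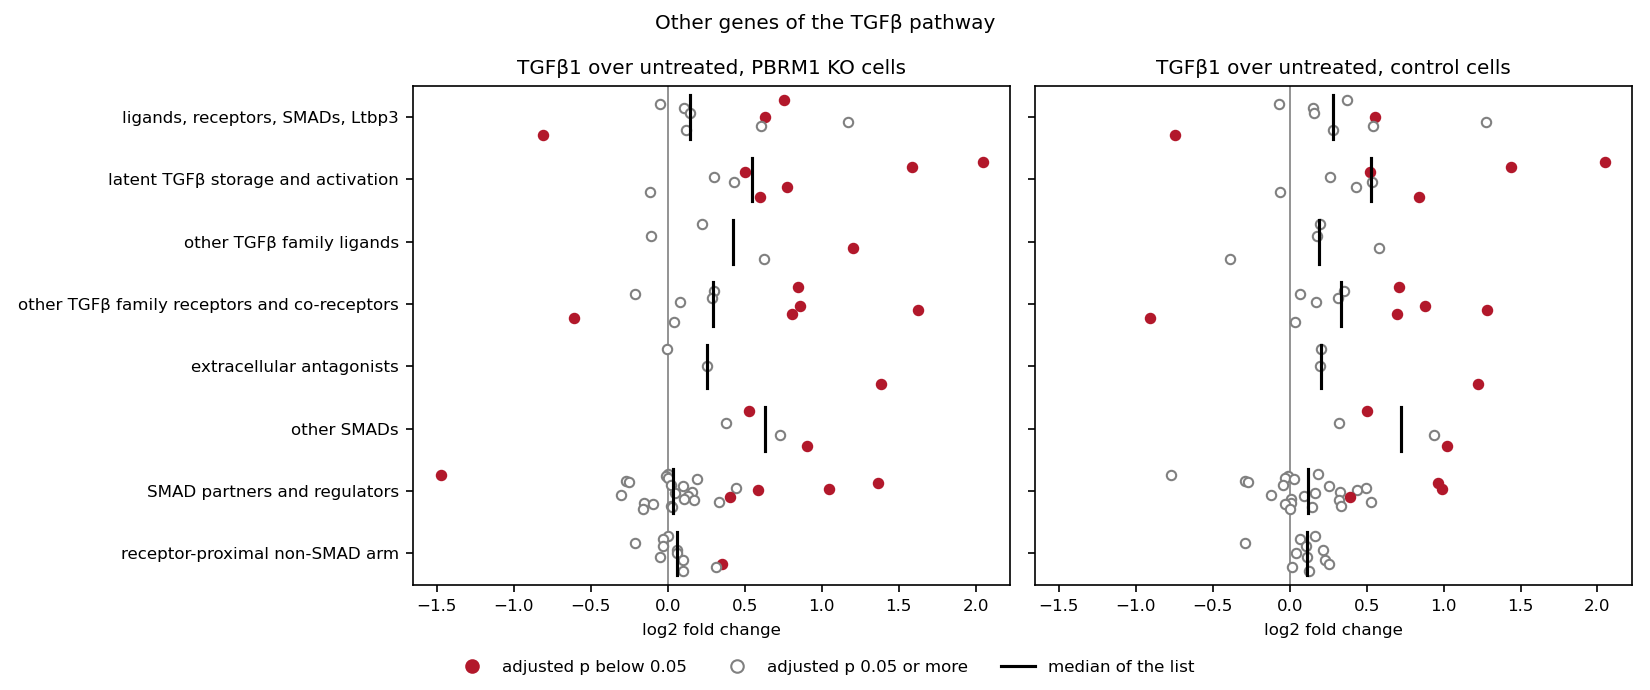
Log2 fold change with TGFβ1 of the 9 tested genes (top row) and of each tested gene in the 7 pathway lists, in PBRM1 KO cells (left) and control cells (right) on 1 scale; each point is a gene, filled where the adjusted p is below 0.05, and the bar is the list's median. Latent storage and activation genes (Fbn1 included) and other SMADs have medians of 0.53 or more in both genotypes, while SMAD partners centre near 0.

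Between genotypes 0 of the 66 tested genes of the 7 lists passed in edgeR, DESeq2 or limma-voom, with or without TGFβ1. In edgeR 9 of the 66 had an unadjusted p below 0.05 with TGFβ1 and 4 without it, against 1194 and 1065 of all 14012 genes. In the comparison with TGFβ1, treated as paired by replicate number, the block gave 3 calls where 1.13% of all genes passed. They were Itgb6 (-1.21 ± 0.23, adjusted p = 0.0267), which encodes the integrin subunit β6 that activates latent TGFβ, Inhba (0.66 ± 0.13, adjusted p = 0.0338) and Nrp1 (0.48 ± 0.10, adjusted p = 0.0361). Itgb6 averaged 3.61 ± 1.89 CPM in PBRM1 KO cells and 8.23 ± 3.37 CPM in control cells with TGFβ1, and 2.86 ± 0.722 CPM in PBRM1 KO cells and 6.82 ± 1.38 CPM in control cells without it (SD, n = 3 each). With TGFβ1 the genotypes overlapped for Itgb6, at 1.43 to 4.72 CPM in PBRM1 KO cells and 4.35 to 10.5 CPM in control cells. Without the block its log2 fold changes were -1.21 ± 0.38 with TGFβ1 (adjusted p = 0.311) and -1.25 ± 0.39 without it (adjusted p = 0.349). Itgb6 also passed without TGFβ1 under the block (adjusted p = 0.0273), a comparison not treated as paired, where 39 of all 14012 genes were higher and 105 lower. Without both replicate 3 libraries it passed with TGFβ1 (-1.12 ± 0.21, adjusted p = 0.0268), where 21 of 14260 genes were higher and 55 lower. In that fit it also passed without TGFβ1 (-1.25 ± 0.19, adjusted p = 0.00365), where 56 were higher and 145 lower. Inhba and Nrp1 passed in neither genotype comparison without those libraries. Their log2 fold changes with TGFβ1 in the fit without the block were 0.66 ± 0.28 (adjusted p = 0.517) and 0.49 ± 0.15 (adjusted p = 0.317). Itgb6, Inhba and Nrp1 between genotypes were singled out after their values were seen.

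Patterns across the 12 libraries were set beside those of the 3 genes that passed, as a description with no test, since all libraries share the split by TGFβ1. Among 7946 genes with at least 10 CPM on average, log CPM of Tgfb1 was most alike to that of Itm2c, Lrp1 and Arhgef40 (Pearson r of 0.979, 0.976 and 0.974 over 12 libraries). For Tgfbr2 they were Tspan5, Syne3 and Nrf1 (0.981, 0.979 and 0.978). Those most like Ltbp3 were Ttyh3, Cdk5rap3 and Sparc (0.957, 0.957 and 0.956).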

How the data were processed

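Messenger RNA was counted in 12 libraries of 4T1 cells. Per the labels' protocols, stranded libraries were made from poly(A) RNA, read near the 3′ end and collapsed by unique molecular identifier. The submitters' processing notes name build mm39, STAR 2.7.11, fastp 0.24.0, featureCounts, SAMtools 1.22.1, edgeR 3.38.4 and Subread 2.1.1, and neither settings nor annotation are stated. The deposited counts are of the expected count kind, judged from the values: 91.8% are whole, and 6 of the 120 values of the 10 genes are fractional (Tgfb1, Tgfbr3, Smad4 and Ltbp3). The deposited CPM values are, per the file headers, counts scaled to the library total.

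Counts were rounded, filtered with filterByExpr (14012 genes) and scaled by TMM. EdgeR 4.0.16 in R 4.3.3 fitted 1 mean per group to all 12 libraries, with the quasi-likelihood F test and Benjamini-Hochberg adjusted p below 0.05 over all tested genes, in 5 contrasts. The SE is the log2 fold change divided by √F. The common coefficient of variation was 12.5%, replicates correlated at 0.978 to 0.992, and no pair agreed within sampling noise (chi-square per gene at least 3.45).

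Libraries with the same replicate number deviated together: their deviations from the group mean correlated by 0.201, 0.139 and 0.202 between treated and untreated PBRM1 KO cells, and by 0.396, 0.416 and 0.726 between the genotypes under TGFβ1. Both contrasts are treated as paired on this basis, as no label says what a number marks. The value of 0.726 is that of replicate 3, whose treated libraries stood apart in the response. The block was fitted to all 12 libraries at once.

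The genes and lists were chosen with earlier results of these data known. All 10 genes are named; from each list up to 3 called genes per direction and contrast are named, plus the 3 genes most like each called gene. Alternatives were other scalings and filters, DESeq2 1.42.0, limma-voom (limma 3.58.1), only the libraries of a contrast, the block, unrounded counts, each library left out and both TGFβ1 replicate 3 libraries left out. Gene overlaps came from GENCODE M21 and promoters from RefSeq. Some genes of the lists and overlaps are not reported here.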

Additional observations from a re-analysis of the deposited data

How the results depend on the processing

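With TGFβ1 in PBRM1 KO cells, where 3 of the 9 genes passed, 5 passed with no filter on low counts, 5 with the replicate block and 5 without both TGFβ1 replicate 3 libraries; leaving out 1 library gave 2 to 4. In control cells, where 2 passed, 5 passed with no filter, 3 at 10 CPM or more (Tgfbr1 added) and 1 with only the libraries of the contrast. There 4 passed with the replicate block and 5 without both replicate 3 libraries, and leaving out 1 library gave 0 to 5. With no filter 33568 genes were tested, all 10 of the genes described among them. At 10 CPM or more, 613 of 8709 genes were higher and 302 lower in control cells. Only the libraries of the contrast gave 640 of 13496 genes higher and 293 lower there. In control cells 5 of the 6 single libraries left out gave 0 calls, and the sixth, TGFβ1 replicate 3, gave 5. The 1 call lost in control cells with only its own libraries was Tgfbr2 (adjusted p = 0.0524). Between genotypes and for the interaction 0 genes passed under every alternative run. No other call of the 9 genes was changed by the block, apart from those of Tgfb2 and Tgfb3 in PBRM1 KO cells and of Tgfb2 and Tgfbr1 in control cells. The contrasts in control cells (correlations 0.258, -0.0835 and 0.137) and between genotypes without TGFβ1 (0.149, 0.0690 and 0.125) were not treated as paired. Some of these correlations were as high as those in PBRM1 KO cells, so they do not separate the contrasts clearly. The cause of the changed calls was not tested.

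Over all genes the counts of higher and lower calls moved by over 1.5 times in some fits. They were 1072 and 521 in PBRM1 KO cells, against 1500 and 913 with no filter, 1682 and 1098 with the block, and 2277 and 1707 without both replicate 3 libraries. In control cells they were 826 and 408, against 1404 and 711, 1507 and 890, and 1988 and 1426 under the same settings. Leaving out 1 library of the contrast other than TGFβ1 replicate 3 lowered them to 438 to 575 and 175 to 302 in PBRM1 KO cells and to 262 to 443 and 146 to 262 in control cells; leaving out TGFβ1 replicate 3 alone gave 1726 and 1333, and 1496 and 904. Between genotypes the counts of all genes (10 and 28 with TGFβ1, 6 and 33 without) were 78 and 181, and 87 and 191 with no filter, 25 and 64, and 25 and 81 with DESeq2, 0 and 4, and 34 and 101 with only the libraries of the contrast, 49 and 109, and 39 and 105 with the block, 21 and 55, and 56 and 145 without both replicate 3 libraries, and 5 and 16, and 1 and 16 at 10 CPM or more. Leaving out 1 library gave 0 to 13 and 3 to 48 with TGFβ1 and 0 to 3 and 8 to 24 without. The interaction gave 8 and 10 with no filter and 0 otherwise.

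Direction turned in 55 refits of 18 results, none of which passed before or after; the largest main value among them was 0.27. Leaving out 1 library at a time, log2 fold changes ran from -0.12 to 0.016 for Smad2 with TGFβ1 in PBRM1 KO cells and from -0.16 to 0.038 in control cells. Between genotypes with TGFβ1 they ran from -0.017 to 0.16 for Tgfb1, -0.17 to 0.65 for Tgfb2, -0.37 to 0.20 for Tgfbr2 and -0.083 to 0.12 for Smad3. Between genotypes without TGFβ1 they ran from -0.064 to 0.10 for Tgfb1, -0.18 to 0.0014 for Tgfbr2, -0.027 to 0.11 for Smad3, -0.086 to 0.059 for Smad4 and -0.078 to 0.024 for Ltbp3. For the interaction they ran from -0.022 to 0.16 for Tgfb1, -0.54 to 0.27 for Tgfb2, -0.23 to 0.32 for Tgfb3, -0.30 to 0.28 for Tgfbr2, -0.091 to 0.10 for Smad2, -0.13 to 0.074 for Smad3 and -0.10 to 0.043 for Smad4. Tgfb1 between genotypes without TGFβ1 was -0.0066 at 10 CPM or more and -0.0064 in limma-voom. The interaction without both replicate 3 libraries was -0.0024 for Tgfb3, 0.045 for Tgfbr2, -0.037 for Smad2 and 0.095 for Smad3, and it was 0.00070 for Smad4 with library size only.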
